A study of Stylosanthes guianensis with 9 samples.

Results

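Genes whose RNA level in stylo root tips stood apart at 48 h after germination were examined, in either direction. Stylo (Stylosanthes guianensis) is a tropical pasture legume, and the samples were roots of the genotype Reyan No. 2, described in the series as root tips, taken 24, 48 and 72 h after germination. The labels give 3 libraries for each time, and no treatment, mutation or transgene was stated for any of them. Whether the replicates were planted and harvested separately is not stated, so every p-value below reflects only how much these samples differ, and that spread may be technical. Levels were deposited as RPKM, that is, reads scaled to gene length in kilobases and to the size of the library, for 54199 genes.

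The members were chosen by their RPKM in 8 libraries. A gene had a 48 h peak where its lowest 48 h library reached an RPKM of at least 5 and at least 1.5 times its highest library at 24 and 72 h. A gene had a 48 h trough where its lowest library at 24 and 72 h reached an RPKM of at least 5 and at least 1.5 times its highest 48 h library. This quotient of the lowest library of the higher side over the highest library of the lower side is called the separation below. Of the 54199 genes, 26 had a peak and 10 had a trough, so neither direction reached the limit of 150 members. Because these values chose the members, the distance of 48 h from the other times is a description of the choice, and no test of it is read.

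The tip of a root holds the meristem, where cells divide, the elongation zone, where they lengthen, and the root cap, whose outer cells can detach as border cells or border-like cells. After germination the tip turns from living on seed reserves to growing through its medium, and the level of a transcript may change for good in that time. A transcript that is high or low at a middle time only follows another course, because its level turns back. In RNA from whole tips, fewer cells of a type and less RNA per cell cannot be told apart. The deposited IDs were not paired with gene names, so the functions of the members are not given here, cell type markers could not be checked, and only 4 IDs are printed.

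Reads could be recovered from the RPKM values, and the 9 libraries held between 28453545 and 37783453 reads. Replicate 3 at 72 h held the reads of replicate 1 and 2.86% more, with a mean chi-square per gene of 0.0473 between them, where the 8 remaining replicate pairs gave 43.3 to 158.2. Their difference was below the sampling noise, and they were treated as 1 sample. This left 3 samples at 24 h, 3 at 48 h and 2 at 72 h. The rule took replicate 1 of this pair, while means, SDs and tests took the mean of both, here called the shared 72 h library. A further pair of libraries listed many genes at 0, with 24907 in replicate 1 at 24 h and 27888 in replicate 2 at 72 h, against 8585 to 12163 in the others. Their part in the results was not tested, and counts without them are given with the counts they touch.

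The gene c25672_g1 had the highest mean level of the 26 peak genes. Its RPKM was 64.1, 48.8 and 75.1 in replicates 1, 2 and 3 at 24 h, then 139.1, 114.8 and 134.1 at 48 h, and 56.8 in the shared library and 47.3 in replicate 2 at 72 h. The mean was 62.7 ± 13.2 at 24 h (SD, n = 3), 129.3 ± 12.9 at 48 h (SD, n = 3) and 52.0 ± 6.69 at 72 h (SD, n = 2). The level at 48 h was thus 2.06 times that at 24 h and 2.49 times that at 72 h, while the 72 h samples overlapped with those of 24 h. These values rest on 3399 to 12712 reads per library.

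The gene c4127_g1 had the largest separation of the peak genes, 3.07. Its RPKM was 2.91, 2.41 and 2.505 at 24 h, then 11.3, 17.2 and 8.95 at 48 h, and 2.78 in the shared library and 0 in replicate 2 at 72 h. The mean was 2.61 ± 0.266 at 24 h (SD, n = 3) and 12.5 ± 4.25 at 48 h (SD, n = 3). The 3 samples of 24 h lay close together and the shared 72 h library was within their range, whereas the 48 h samples were spread widely. The 0 in replicate 2 at 72 h, a library with many genes at 0, allows up to 3 reads, an RPKM of 0.127, and this limit covers counting error only.

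The gene c12062_g1 had both the highest mean level and the largest separation, 2.40, of the 10 trough genes. Its RPKM was 29.3, 35.1 and 37.97 at 24 h, then 6.82, 6.72 and 8.89 at 48 h, and 36.7 in the shared library and 21.4 in replicate 2 at 72 h. The mean was 34.1 ± 4.41 at 24 h (SD, n = 3), 7.48 ± 1.23 at 48 h (SD, n = 3) and 29.0 ± 10.8 at 72 h (SD, n = 2). The level at 48 h was 0.219 times that at 24 h. The shared 72 h library was back within the range of 24 h, and replicate 2 at 72 h lay below that range.

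The gene c28352_g1 had the next largest separation of the trough genes, 2.05. Its RPKM was 22.3, 18.7 and 22.2 at 24 h, then 6.89, 6.22 and 7.13 at 48 h, and 17.1 in the shared library and 14.6 in replicate 2 at 72 h. The mean was 21.1 ± 2.04 at 24 h (SD, n = 3), 6.75 ± 0.473 at 48 h (SD, n = 3) and 15.9 ± 1.798 at 72 h (SD, n = 2). Both 72 h samples lay between the other times, above the samples of 48 h and below those of 24 h. At 704 to 2474 reads per library, counting error was small beside these differences.

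**Figure D1:**
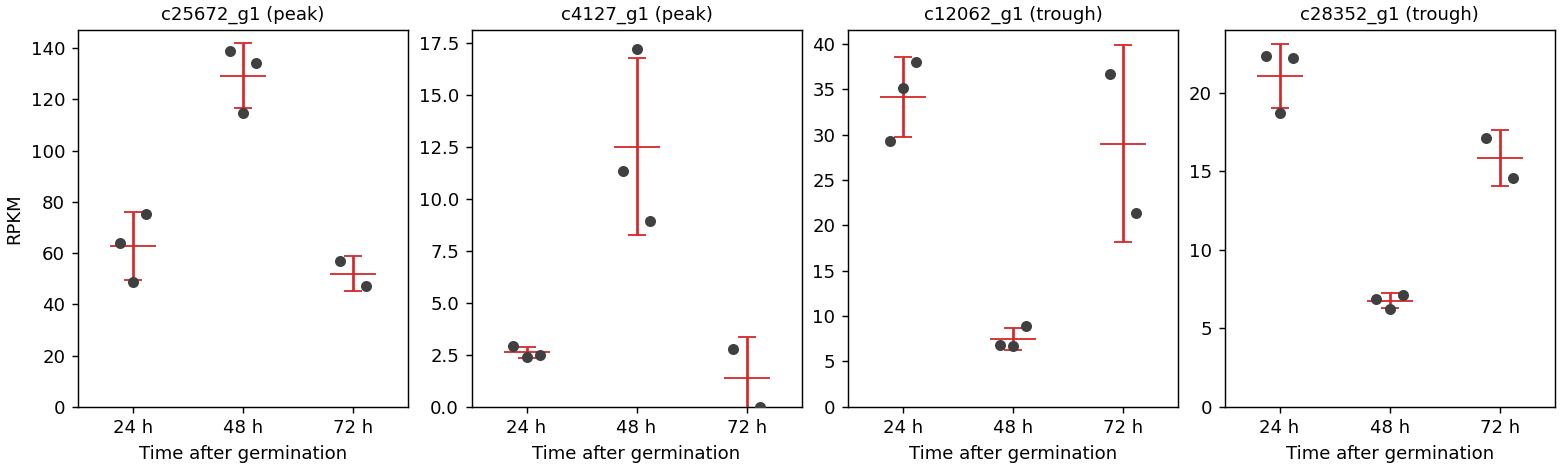
RPKM of the 4 printed genes (y axis) at 24, 48 and 72 h after germination (x axis), with 1 point per sample, the shared library as 1 point at 72 h, and red lines for the mean ± SD (bars below 0 are not drawn). In c25672_g1 and c4127_g1 the 48 h samples are highest, and in c12062_g1 and c28352_g1 they are lowest.

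The rule asked for an RPKM of at least 5 in each 48 h library, while a gene tested needed 1 in 3 of the 9 columns. This favours higher levels, and most peak genes lay above the middle level of the genes tested. Their mean RPKM over the 8 libraries ran from 2.98 to 85.0 with a median of 9.81, against a median of 5.91 over the 28428 genes tested, which 18 of 26 exceeded, and 5 of 26 exceeded 20. The median of the mean level was 3.31 RPKM at 24 h, 18.8 at 48 h and 5.76 at 72 h. The 48 h level was between 1.93 and 58.9 times the 24 h level, with a median of 3.06, and between 1.74 and 9.01 times the 72 h level, with a median of 2.94. The separation had a median of 1.73. In all, the 26 genes held 0.0297% to 0.0406% of the reads of the 24 h libraries, 0.0903% to 0.0974% at 48 h, and 0.0429% and 0.0229% in replicates 1 and 2 at 72 h.

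The mean level of the peak genes ran from 5.45 to 129.3 RPKM at 48 h and from 1.09 to 52.0 at 72 h. The genes also differed in where they started, with 0.507 to 62.7 at 24 h. At the low end, the gene ranked the ninth by mean level had an RPKM of 0, 0.324 and 1.20 at 24 h, on 0, 8 and 32 reads, then 30.98, 29.65 and 29.0 at 48 h, and 17.5 in the shared library and 2.91 in replicate 2 at 72 h. It was nearly absent at 24 h, and its 3 samples at 48 h agreed within a coefficient of variation of 3.37%. The gene ranked the seventh had 0.795, 4.57 and 4.22 at 24 h, then 34.1, 44.9 and 37.8 at 48 h, and 17.6 in the shared library and 0.107 in replicate 2 at 72 h. Here the 72 h samples lay on both sides of the range of 24 h. By contrast, the gene ranked the tenth was already at 7.999, 11.6 and 9.98 at 24 h and reached 18.5, 18.2 and 20.2 at 48 h, with 11.6 in the shared library and 7.52 in replicate 2 at 72 h. Its 48 h level was 1.93 times that of 24 h, the lowest such ratio of the 26 peak genes. These 3 genes were picked after their values were seen.

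The samples of 48 h agreed better than those of 24 h in most peak genes. The coefficient of variation at 48 h had a median of 10.9% and ran from 3.28% to 75.8%, and at 24 h the median was 30.6%. It was higher at 48 h in 6 of 26 genes. The rule favours this, since it asks for a high lowest value at 48 h. The most uneven gene at 48 h, ranked the sixteenth, had an RPKM of 12.7, 6.89 and 31.6 in replicates 1, 2 and 3. Replicate 2 was the highest 48 h library in 13 peak genes, replicate 3 in 10 and replicate 1 in 3. Of the 28428 genes tested, replicate 2 was the highest in 6565, replicate 3 in 14954 and replicate 1 in 6909. Every peak value at 48 h rested on at least 87 reads.

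The rule let peak genes be at 0 at 24 and 72 h but kept trough genes at an RPKM of at least 5 there. The ratios of the trough genes are therefore not set against those of the peak genes. The mean RPKM of the 10 trough genes over the 8 libraries ran from 4.52 to 22.9 with a median of 8.43, and 2 exceeded 20. The median of the mean level was 11.4 RPKM at 24 h, 4.24 at 48 h and 8.87 at 72 h. The 24 h level was between 1.95 and 6.18 times the 48 h level, with a median of 2.58, and the 72 h level was between 1.799 and 3.88 times the 48 h level, with a median of 2.09. The separation had a median of 1.63. None of these genes was near 0 at 48 h, where the mean RPKM was at least 2.71. The lowest count behind a 48 h value was 13 reads, in a gene of 217 nucleotides.

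Among the troughs, levels at 24 and 72 h were close to each other in some of the lower genes and not in others. The rule kept each library of 24 and 72 h at an RPKM of at least 5, which left the lower genes less room to differ. The gene ranked the eighth had an RPKM of 8.33, 7.98 and 7.59 at 24 h, then 4.89, 4.61 and 2.78 at 48 h, and 7.93 in the shared library and 8.14 in replicate 2 at 72 h. The gene ranked the ninth had 9.52, 6.64 and 8.59 at 24 h, then 2.73, 4.03 and 4.01 at 48 h, and 7.94 and 7.55 at 72 h. In both, the 72 h samples overlapped with those of 24 h. The gene ranked the seventh was still lower at 72 h than at 24 h, with 10.7, 11.6 and 11.2 at 24 h, then 4.01, 3.59 and 3.75 at 48 h, and 6.53 and 7.09 at 72 h. Its samples did not overlap between any of the 3 times, and these 3 genes too were picked after their values were seen.

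**Figure D2:**
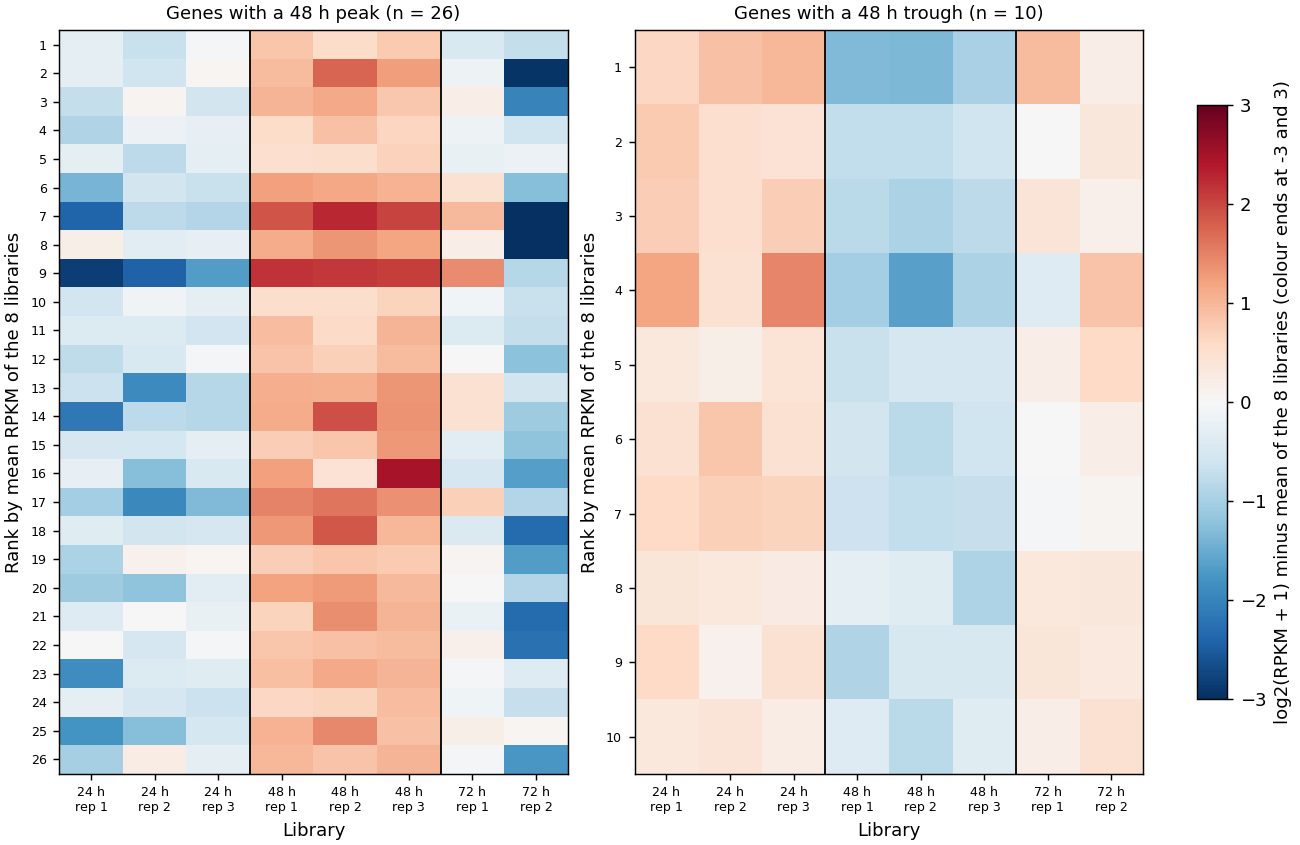
Level of each member in the 8 libraries of the rule (x axis), as log2(RPKM + 1) minus the mean of the 8 libraries, for the 26 peak genes and the 10 trough genes, ranked by mean RPKM from the top (y axis). Red is above and blue below the gene's mean, and colours end at -3 and 3. The 48 h columns stand apart because the rule chose on them, while replicates 1 and 2 at 72 h differ in many peak genes.

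The 2 libraries of 72 h placed the peak genes differently. Replicate 1 lay above all 24 h samples in 17 of 26 peak genes (33% of all genes tested did) and below all of them in 0 (26.1% of all genes tested did). Replicate 2 lay above all 24 h samples in 5 (28.3% of all genes tested did) and below all of them in 16 (43.9% of all genes tested did). Replicate 1 was higher than replicate 2 in 25 of 26 peak genes (96.2%) and in 3 of 10 trough genes (30%), and in 66.0% of all genes tested. Replicate 2 is a library with many genes at 0. In it 4 of 26 peak genes were at 0, against 1 in replicate 1 at 24 h and 0 in the other libraries of the rule. Of the 28428 genes tested, 5116 were at 0 in replicate 2 at 72 h and 3467 in replicate 1 at 24 h. In the other libraries of the rule, 175 to 429 were. In the 10 trough genes, replicate 1 was above all 24 h samples in 0 and below all of them in 6, while replicate 2 was above in 2 and below in 5. The rule asks trough genes for an RPKM of at least 5 in each library of 24 and 72 h but lets peak genes be at 0 there, so that peak and trough genes cannot be set against each other in this respect.

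How far each member had turned back was expressed as the part of the step between the 24 h mean and the 48 h mean that was lost in each 72 h library. At 0% a library stands at the 48 h mean and at 100% at the 24 h mean. For the peak genes the median was 80.2% in replicate 1, with a range of 41.3% to 108.8%, and 112.8% in replicate 2, with a range of 67.3% to 169.5%. Replicate 2 was at or past the 24 h mean in 19 of 26 peak genes and replicate 1 in 2. For the trough genes the medians were 77.9% in replicate 1 and 78.0% in replicate 2, and the ranges were 19.1% to 109.6% and 44.7% to 150.8%. All of these values entered the rule, which keeps trough genes at 72 h from falling under an RPKM of 5 and sets no such minimum for peak genes, so nothing is read from the difference between the groups.

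**Figure D3:**
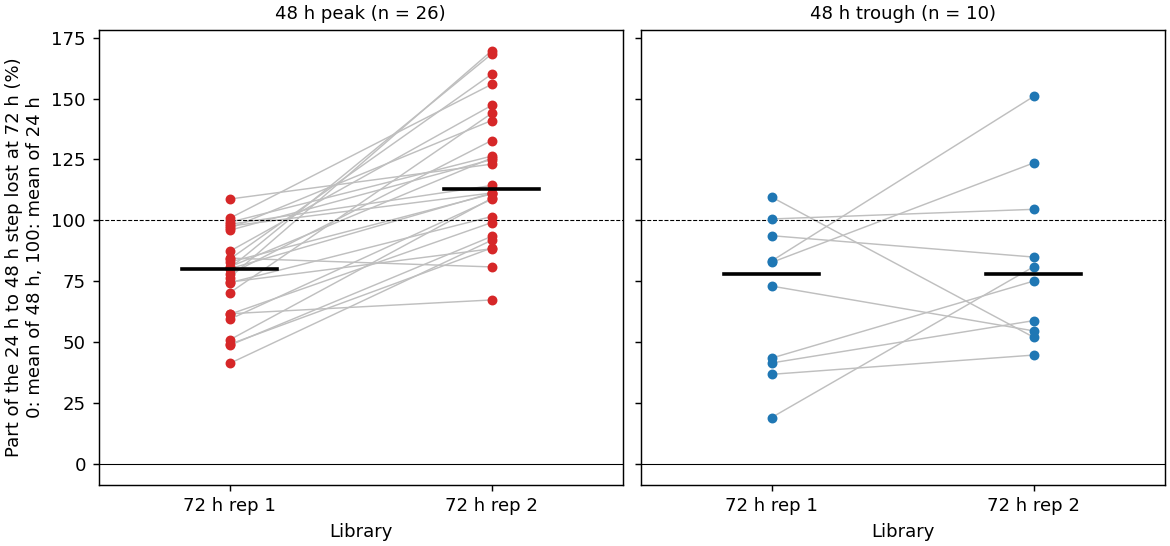
Part of the step between the mean of 24 h and the mean of 48 h that was lost at 72 h (y axis, in percent) in replicates 1 and 2 at 72 h (x axis), with 1 grey line per gene and black bars for medians. The dashed line is the level of 24 h. In peak genes the medians are 80.2% and 112.8%, and in trough genes 77.9% and 78.0%.

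The rule did not choose genes by the difference between 72 h and 24 h, and this difference was tested. It did use the values of both times, capping them for peak genes and keeping them at an RPKM of at least 5 for trough genes, so the range of differences that members could show was limited and their counts are read as a description. Limma was fitted on log2(RPKM + 1) over 28428 genes, those with 3 or more of the 9 columns at an RPKM of 1 or above, and p-values were adjusted by Benjamini-Hochberg over all of them. All 26 peak genes and 10 trough genes passed this filter. Of the peak genes, 1 was higher at 72 h than at 24 h at an adjusted p under 0.05 (3.88% of all genes tested were) and 0 were lower (9.42% of all genes tested were). Of the trough genes, 0 were higher and 0 were lower. At an unadjusted p under 0.05, 4 peak genes were higher (11.4% of all genes tested were) and 0 lower (18% of all genes tested were), and 0 trough genes were higher and 1 lower. The count of 1 peak gene became 0 without replicate 1 at 24 h (2.33% of all genes tested were then higher), 2 without replicate 3 at 24 h (1.83%) and 4 without replicate 2 at 72 h (1.46%). In the fit of all samples the share of peak genes that were higher, 1 of 26, was near that of all genes. This did not hold in each fit that left out a library. A p that misses the threshold does not show that 72 h and 24 h were alike.

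The peak gene that passed was the one nearly absent at 24 h. Its mean RPKM was 10.2 ± 10.3 at 72 h (SD, n = 2) and 0.507 ± 0.619 at 24 h (SD, n = 3), a log2 difference of 2.57 on the log2(RPKM + 1) scale (standard error 0.569, adjusted p = 0.0166 from limma). Both 72 h samples were above all 3 samples of 24 h. The size of the difference varied with the setting, from 1.28 with a pseudocount of 5 to 4.26 with a pseudocount of 0.1 and 5.54 with voom weights, and it was 3.70 without replicate 2 at 72 h and 1.45 without the shared library. Over the 23 alternative fits the adjusted p ran from 0.000382 to 0.0885, and it stayed under 0.05 in 20. It was 0.0557 without replicate 1 at 24 h, where the gene was at 0, 0.0885 with voom weights and 0.0820 with only these times in the fit, and each of these ends the call.

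The other 25 peak genes lay on both sides of 0 in this comparison, with log2 differences between 72 h and 24 h of -1.50 to 1.34. The difference was above 0 in 11 of them, and in 45.4% of all genes tested. Over all 26 the median was -0.07, and that of all genes tested was -0.07. After median rescaling, which shifted the median of all genes by 0.17, the median of the peak genes was 0.10. Without replicate 2 at 72 h, which leaves a lone sample whose spread is taken from the remaining times, the median of the peak genes was 0.33 and 4 of them were higher at an adjusted p under 0.05 (1.46% of all genes tested were). Without the shared library, 1 was higher (6.9% of all genes tested were) and 8 were lower (19.8% of all genes tested were), and the median was -0.39. The sign of the median of the peak genes therefore depended on which 72 h library was kept.

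In the trough genes the log2 difference between 72 h and 24 h ran from -0.80 to 0.09, with a median of -0.33 (-0.07 over all genes tested). It was above 0 in 3 of 10, and in 45.4% of all genes tested. The median was -0.16 after median rescaling, -0.20 without replicate 2 at 72 h and -0.20 without the shared library, so the sign of the median did not change under these settings. In c28352_g1 the log2 difference was -0.39 (standard error 0.191, adjusted p = 0.207 from limma), and in c12062_g1 it was -0.27 (standard error 0.247, adjusted p = 0.508 from limma). In the peak genes c25672_g1 and c4127_g1 it was -0.25 (standard error 0.191, adjusted p = 0.423 from limma) and -0.89 (standard error 0.511, adjusted p = 0.279 from limma). Without replicate 2 at 72 h the log2 difference was 0.068 in c4127_g1 and 0.11 in c12062_g1, and without the shared library it was -1.85 and -0.64. The sign in both genes thus changed when replicate 2 at 72 h was left out. Without replicate 1 at 24 h, the other library with many genes at 0, it stayed negative, at -0.83 in c4127_g1 and -0.37 in c12062_g1.

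**Figure D4:**
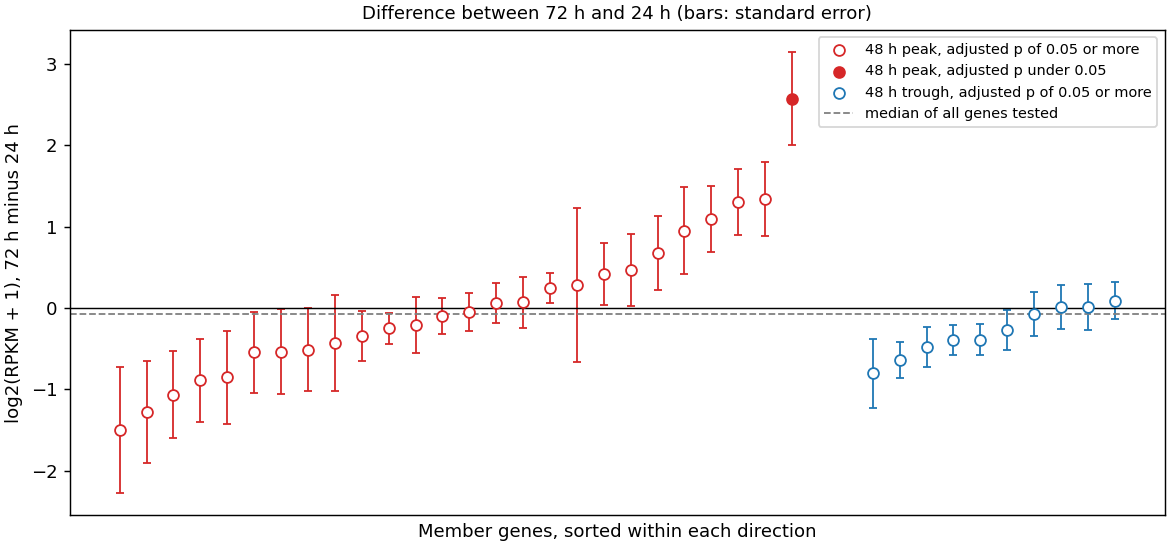
Difference between 72 h and 24 h in log2(RPKM + 1) for each member (y axis, bars are the standard error from limma), sorted within the 26 peak genes and the 10 trough genes (x axis). The dashed line is the median of all genes tested, -0.07. The filled point is the 1 peak gene with an adjusted p under 0.05, and the trough genes lie between -0.80 and 0.09.

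By order alone, both 72 h samples lay above all 24 h samples in 5 of 26 peak genes (19.2%, against 18% of all genes tested) and below all of them in 0 (against 21.9% of all genes tested). The remaining 21 peak genes overlapped between 72 h and 24 h. Of the 10 trough genes, 0 lay above and 4 lay below, and 6 overlapped. The share of peak genes above was close to that of all genes. As the rule limits how high peak genes and how low trough genes may be at 72 and 24 h, these shares are given as counts with no test.

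The same fit gives the comparisons that the rule used, and nothing about the members is read from them. For 48 h against 24 h, 19 of 26 peak genes were called higher (2.08% of all genes tested were) and 8 of 10 trough genes lower (5.53% of all genes tested were). For 72 h against 48 h none of the 28428 genes tested was called, higher (0%) or lower (0%), and so no member was. With no filter on low values, 6 genes were called. At an unadjusted p under 0.05 this comparison gave 1147 genes higher and 2014 lower, and limma with voom weights on recovered reads called 9. For 48 h against the mean of 24 h and 72 h, 76 genes were called higher (0.267%) and 220 lower (0.774%), of which 12 were peak genes and 5 were trough genes. With voom weights this split was 56 higher and 35 lower, and without the shared 72 h library it was 999 higher and 505 lower. The total of 296 became 187 and 173 without replicates 2 and 3 at 24 h, and 88, 101 and 84 without replicates 1, 2 and 3 at 48 h.

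Few genes of the table stood apart at 48 h. When the same rule was applied to each time, 24 h was the highest in 1000 genes and the lowest in 182, 48 h in 26 and 10, and 72 h in 43 and 133. Of all genes set apart in this way, 84.8% were set apart at 24 h, 2.58% at 48 h and 12.6% at 72 h. The rule compared 3 libraries with 5 others at 24 h and at 48 h but 2 with 6 others at 72 h, so the counts of 72 h are not on the same footing. These counts are descriptions with no test.

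The number of members changed most when replicate 1 at 72 h was left out. Replicate 1 was the library of the other times that came closest to 48 h in 16 of 26 peak genes and in 5 of 10 trough genes. Without it, 135 genes met the peak rule and 42 the trough rule. The rule then rests at 72 h on replicate 2 alone, a library with many genes at 0, and the part of this in the change was not tested. Leaving out another library gave 28 to 48 peak genes and 11 to 19 trough genes, and the 26 and 10 members were kept in each case, as leaving out a library can only add genes. Among these, the peak count passed 1.5 times the original without replicate 1 (48) or replicate 2 (41) at 48 h, and the trough count without replicate 2 or 3 at 48 h (17 each) or replicate 2 at 72 h (19). Without both libraries with many genes at 0, a setting chosen after seeing the data, 35 genes met the peak rule and 24 the trough rule.

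**Figure D5:**
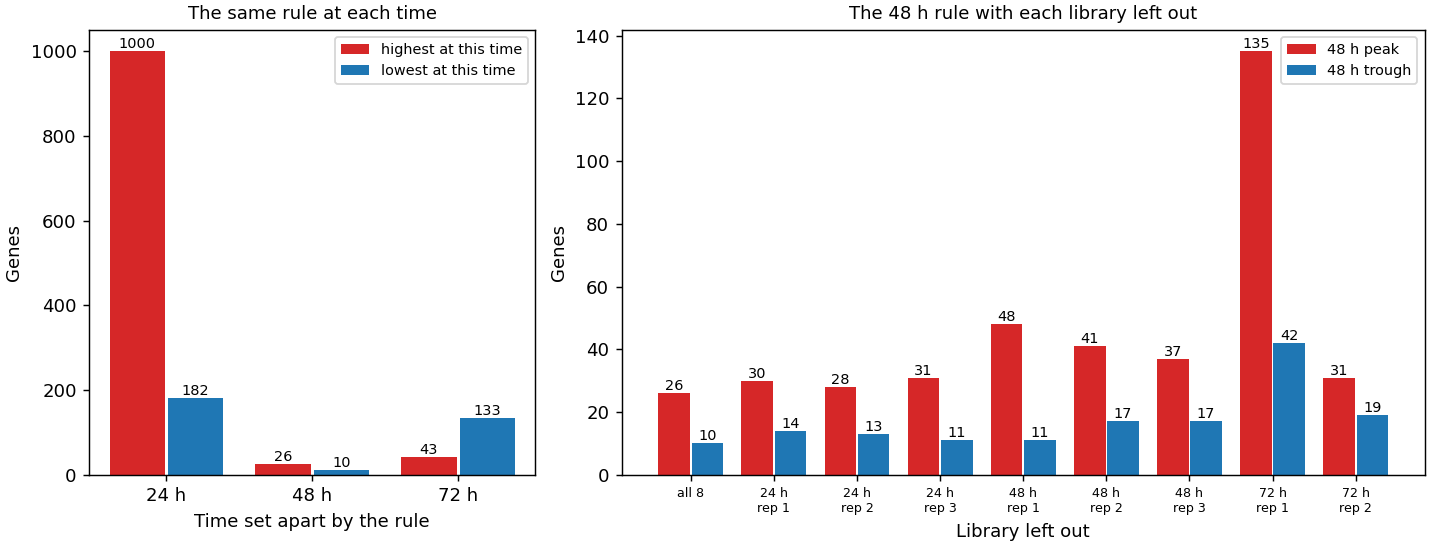
Left, number of genes (y axis) that the rule sets apart as highest (red) or lowest (blue) at each time (x axis). Right, number of genes that meet the 48 h peak rule (red) or trough rule (blue) with all 8 libraries and with each library left out (x axis). The counts at 48 h are 26 and 10, and without replicate 1 at 72 h they are 135 and 42.

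The threshold cut through a continuous range of values. Just inside it, the peak gene with the smallest separation, 1.52, had an RPKM of 32.8 in its lowest 48 h library and 21.5 in its highest other library. Just outside it, a gene with a separation of 1.496 had 14.2 and 9.48. In all, 5 peak genes lay between 1.5 and 1.6, and 12 further genes between 1.4 and 1.5. For the troughs the nearest gene inside had a separation of 1.55, with 7.59 in its lowest library of 24 and 72 h and 4.89 in its highest 48 h library, and the nearest gene outside had a separation of 1.42, with 5.34 and 3.75. At a lowest value of at least 5 RPKM on the higher side, 516 genes had all 48 h libraries at or above the other libraries, and 369 had them at or below.

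Members were not alike in gene length. The length recovered with the reads had a median of 956.5 nucleotides in the peak genes, with a range of 202 to 2746, and of 1536.5 in the trough genes, with a range of 217 to 3729. The median of all genes tested was 1172 nucleotides. Each length is the smallest at which all values of the gene were whole reads, and a true length could be a multiple of it. IDs have the form of assembled components with numbered genes, and 15 of 26 peak genes (57.7%) and 7 of 10 trough genes (70%) came from a component with at least 2 genes, against 65.8% of all genes tested. Reads of near-identical genes of 1 component could have been split between them, so the levels of these members are uncertain in that respect.

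A single component held more than 1 member, and it held 1 of each direction. It had 24 genes, of which 19 passed the filter. Its peak gene had an RPKM of 6.18, 7.84 and 10.9 at 24 h, then 21.2, 19.1 and 22.5 at 48 h, and 10.96 in the shared library and 4.18 in replicate 2 at 72 h. Its trough gene had 10.6, 9.64 and 11.4 at 24 h, then 4.93, 5.67 and 5.62 at 48 h, and 9.62 in the shared library and 13.2 in replicate 2 at 72 h. At 24 h the ranges of both genes overlapped, while within each library the peak gene was below the trough gene. At 48 h the peak gene was above the trough gene in each library, and at 72 h the order was mixed. No other gene of the component had all 48 h libraries above or below all libraries of 24 and 72 h. This pair was noticed after the values were seen, and a shift of reads between the pair was not tested.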

How the data were processed

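Per the labels, RNA from roots was made into libraries with a BGI RNA-Seq kit, and HTSeq 0.6.0, which counts reads per gene, is named in the submitters' processing notes. The table deposited by the authors gives RPKM for each of 54199 genes, with a column for each of the 9 libraries. The aligner, the assembly and any filter are not given in the sources used here. Reads and gene lengths were recovered by finding the library total and the smallest length, up to 100000 nucleotides, at which values were whole reads. The tolerance was 1e-08, or 1e-11 relative to the count, and whole reads were found for 54199 genes. A true length, and the reads with it, could be a multiple of that found. Recovered reads summed to 99.83% to 99.94% of the library totals. Reads and lengths served for depth, length and 1 alternative fit.

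Members and lists were chosen with earlier results of these data known. At most 2 IDs per direction are printed, namely the member with the highest mean RPKM and the one with the largest separation, or the next largest where both were 1 gene. No gene list was tested.

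Limma 3.58.1 in R 4.3.3 was run on log2(RPKM + 1), with a pseudocount of 1, an intensity trend and all times in 1 fit, without a replicate block. The differences understate the change of low genes. The fit was tested on simulated data. A Benjamini-Hochberg adjusted p under 0.05 counted as called. Alternatives changed the pseudocount, filter, scaling, samples, block, trend, weights and rule, or left out each library. Tables were made with Python 3.11.15 and pandas 2.3.3.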

Additional observations from a re-analysis of the deposited data

How the results depend on the processing

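The fits without 2 libraries were chosen after seeing the data, and the cause of a change was not tested unless the setting itself removes samples. Genes called for 48 h against the mean of 24 h and 72 h were 296. They were 90 with a pseudocount of 0.1, 525 with quantile normalization (168 higher and 357 lower), 518 with all 9 columns as separate samples, 91 with voom weights, 1504 without both 72 h replicates 1 and 3, and 597 without 24 h replicate 1 and 72 h replicate 2. For 72 h against 48 h, the count of 0 became 6 with no filter, 15 with median rescaling, 23 with quantile normalization, 39 with 9 columns, 9 with voom weights and 3496 without both 72 h replicates 1 and 3. For 72 h against 24 h, the count of 3781 became 1599 with only these times in the fit, 7584 without both 72 h replicates 1 and 3, and 2082 without 24 h replicate 1 and 72 h replicate 2. The share of higher genes among these calls was 1102 of 3781, and 2050 of 4438 after median rescaling, 1977 of 4386 with quantile normalization. For 48 h against 24 h it was 592 of 2163, and 1011 of 2400 after median rescaling, 997 of 2668 with quantile normalization.

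Peak genes called for 72 h against 24 h were 1. They were 4 with median rescaling, quantile normalization or 9 columns, all higher, where 2050, 1977 and 2016 of the 28428 genes tested were higher. They were 2 with the replicate block, also higher, where 1204 of all genes tested were higher. With voom weights or only these times they were 0, where 1040 and 280 were higher. The median log2 difference of the peak genes was -0.39 without both 72 h replicates 1 and 3. It was 0.36 without 24 h replicate 1 and 72 h replicate 2. Trough genes called were 0, and 1 lower with 9 columns, where 3203 of all genes tested were lower. The correlation of deviations was -0.05 to 0.22 for samples of the same number and -0.25 to 0.14, for other pairs, so the numbers were not taken to pair the samples. The replicate block called 3749, 2217, 0 and 200 genes for 72 h against 24 h, 48 h against 24 h, 72 h against 48 h and 48 h against the mean of the others.

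When each library was left out singly, there were 84 to 380 genes for 48 h against the mean of the others, 0 for 72 h against 48 h, 1657 to 3833 for 72 h against 24 h (1657 without 72 h replicate 2, 2256 without 24 h replicate 3, 2469 without 48 h replicate 1) and 1006 to 3144 for 48 h against 24 h (1368 without 24 h replicate 3, and 1006, 1101 and 1147 without 48 h replicates 1, 2 and 3). For 48 h against the mean of the others the count was 187 and 173 without 24 h replicates 2 and 3, and 88, 101 and 84 without 48 h replicates 1, 2 and 3. Leaving out each library singly gave 0 trough genes called for 72 h against 24 h. Peak genes called were 0 without 24 h replicate 1 (2.33% of all genes tested were higher) and 2 without 24 h replicate 3 (1.83%). The median log2 difference ran from -0.20 to 0.33 for peak genes and from -0.33 to -0.20 for trough genes. In all of these fits, leaving out 72 h replicate 1 or 3 kept its near copy, so the shared library was never removed. With each library left out of the rule, 28 to 135 genes met the peak rule and 11 to 42 the trough rule. There, leaving out 72 h replicate 1 did remove the shared library, as the rule did not use replicate 3. The log2 difference ran from -0.93 to 0.068 in c4127_g1 and from -0.37 to 0.11 in c12062_g1, positive only without 72 h replicate 2, and it turned without 24 h replicate 1 and 72 h replicate 2 to 0.13 and 0.0059.

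The rule gave 80 peak and 34 trough genes at a lower limit on the separation, and 5 and 2 at a separation of 2. With a minimum RPKM of 1 it gave 60 and 33, and with 10 it gave 16 and 3. Median rescaling gave 28 and 7, of which 23 and 6 were members, and 72 h replicate 3 in place of replicate 1 gave 26 and 10, which were the same genes. Without 24 h replicate 1 and 72 h replicate 2 it gave 24 trough genes.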
